A study of Mus musculus with 2 samples.

Results

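Neutrophil-gated barcodes of MC38 tumours were selected from single-cell RNA-seq matrices by their own transcripts. A barcode stands for 1 droplet, and a UMI is a molecular tag that counts 1 captured RNA molecule. A barcode was a member when it had 300 or more detected genes, under 10% mitochondrial UMIs, 5 or more UMIs of S100a8 plus S100a9, 1 or more UMIs of any of Csf3r, Cxcr2, Retnlg, Slpi and Mmp9, and 0 UMIs of Cd3d, Cd3e, Cd3g, Xcr1 and Siglech. This gave 71 members among 5686 barcodes, of which 5225 passed the first pair of conditions. Replicate 1 held 25 members and replicate 2 held 46. MC38 is a mouse colon carcinoma line, and the immune cells were sorted by flow cytometry from tumours at day 21. All samples form 1 group, with no treatment or genotype given in the labels, in 2 replicate libraries made with 10x 3′ chemistry. Strain, age and the number of animals in each library are not stated in the labels. The deposited matrices are named with a word that differs between the libraries and has no explanation in the labels. It was not used, so n = 2 rests on the titles, which call the libraries replicates. Xist had 15 UMIs in members of replicate 1 and 0 in members of replicate 2, whereas Y-linked genes had 0 and 5, so each library stems from its own animal or animals, and sex and library cannot be told apart.

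Neutrophils are short-lived granulocytes that leave the bone marrow under the growth factor G-CSF, whose receptor is encoded by Csf3r, and follow chemokines through the receptor Cxcr2. They carry large amounts of calprotectin, the calcium-binding heterodimer of S100a8 and S100a9, and store antimicrobial proteins in granules made during maturation. Within tumours they are known to secrete Il1b and chemokines of the Cxcl2 family, which recruit further neutrophils.

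The matrices held 5688000 and 5862342 UMIs, and the kept barcodes had a median of 1495.5 and 1386 UMIs. No barcode sequence occurred in both libraries. Scrublet, a doublet caller, marked 8 and 41 of the kept barcodes, 0.335% and 1.45%, and 1 member in each library. The members were as shallow as the rest, with a median of 1565 UMIs and 614 genes in replicate 1 and of 1077 UMIs and 565 genes in replicate 2. Together they held 51623 and 53842 UMIs, so 1 UMI in the members of replicate 1 was worth 19.4 CPM (summed UMIs of a gene, scaled to a common total per class and library) and 1 UMI in replicate 2 was worth 18.6 CPM. A single barcode of replicate 1 held 12975 UMIs, 25.1% of all member UMIs there, with 17 calprotectin UMIs and 1 C1q UMI. The members were set beside 2 gated phagocyte classes of the same libraries. C1q macrophages (516 and 343 barcodes) had 5 or more UMIs of C1qa, C1qb and C1qc and a UMI of Csf1r or Adgre1. C1q-low monocytes (122 and 180 barcodes) had at most 1 C1q UMI, a UMI of Ly6c2, Chil3, Ccr2 or Plac8 and a UMI of Lyz2 or Tyrobp. Both had under 5 calprotectin UMIs and none of the 5 excluded genes.

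The members made up 1.05% of the kept barcodes of replicate 1 (95% Clopper-Pearson interval 0.679 to 1.54%) and 1.62% of those of replicate 2 (1.19 to 2.16%), a mean of 1.33 ± 0.406% (SD, n = 2 libraries). All intervals given here cover counting error only. At 20 or more calprotectin UMIs 12 and 9 barcodes remained, so the order of the libraries turned round, with shares of 0.503% and 0.317%. The gate left calprotectin RNA outside. In replicate 1, 38 kept barcodes reached 5 calprotectin UMIs, 8 of them lacked every gene of the second condition, and 5 more held an excluded gene. In replicate 2 the same counts were 133, 62 and 25. The members therefore held 59.2% of the S100a8 and S100a9 UMIs of kept barcodes in replicate 1 and 32.2% in replicate 2. Just inside the threshold, at 5 or 6 calprotectin UMIs, lay 1 member of replicate 1 and 10 of replicate 2, and just outside it, at 3 or 4 UMIs with the other conditions met, lay 5 and 16 barcodes. The 10 barcodes just inside in replicate 2 summed to 2255 CPM of Cxcl2, and the 16 just outside to 799.6 CPM. In replicate 1 the order was reversed, with 0 CPM in the 1 barcode just inside and 1953 CPM in the 5 just outside.

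Promoter sequences are shown for 4 genes on which the results turn. Cxcl2 and Retnlg differed between the members of both libraries in opposite directions, and Lcn2 and Ptgs2 were among the genes called higher in members than in macrophages. Each sequence holds the 250 bases before the RefSeq gene start on GRCm38.p6, which has the coordinates of mm10, 5′ to 3′ on the gene's strand. Capitals mark letters that match the C/EBP type motif TTGCNNAA or, in Cxcl2, the NF-kappaB type motif (GGG, any 2 letters, TTTCC), on either strand. The windows are chr5:90903649-90903898 (plus strand) for Cxcl2, chr16:48872358-48872607 (plus strand) for Retnlg, chr2:32387740-32387989 (minus strand) for Lcn2 and chr1:150099781-150100030 (plus strand) for Ptgs2.
Cxcl2: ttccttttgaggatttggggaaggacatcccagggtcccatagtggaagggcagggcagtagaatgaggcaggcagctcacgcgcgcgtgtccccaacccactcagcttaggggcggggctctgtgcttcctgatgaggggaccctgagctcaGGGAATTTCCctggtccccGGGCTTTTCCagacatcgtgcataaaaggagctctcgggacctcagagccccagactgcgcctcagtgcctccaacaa
Retnlg: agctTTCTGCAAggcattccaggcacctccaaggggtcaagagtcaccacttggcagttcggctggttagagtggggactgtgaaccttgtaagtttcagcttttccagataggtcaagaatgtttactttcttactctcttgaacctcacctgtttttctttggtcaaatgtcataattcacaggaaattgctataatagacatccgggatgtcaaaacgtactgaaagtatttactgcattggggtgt
Lcn2: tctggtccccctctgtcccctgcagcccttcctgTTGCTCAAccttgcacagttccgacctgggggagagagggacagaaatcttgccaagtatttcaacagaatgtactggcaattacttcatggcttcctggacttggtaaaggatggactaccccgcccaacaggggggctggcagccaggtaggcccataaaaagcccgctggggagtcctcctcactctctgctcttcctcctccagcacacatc
Ptgs2: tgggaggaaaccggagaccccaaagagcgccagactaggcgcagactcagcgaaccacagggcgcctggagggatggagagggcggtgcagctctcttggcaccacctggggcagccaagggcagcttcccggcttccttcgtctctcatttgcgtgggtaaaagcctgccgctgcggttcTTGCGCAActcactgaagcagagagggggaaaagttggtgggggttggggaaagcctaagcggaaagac
The 2 NF-kappaB type matches of Cxcl2 began 97 and 78 bases before the RefSeq start and did not overlap. The C/EBP type match lay 246 bases before the start in Retnlg, 216 in Lcn2 and 69 in Ptgs2. In the GENCODE annotation of the same build the Lcn2 gene starts farther upstream, so the whole Lcn2 window and its match lie within the gene there. Over 13 genes of the gate and of the calls, 12 had a RefSeq promoter. The C/EBP type motif was in 5 of these 12 (S100a9, Retnlg, Slpi, Lcn2 and Ptgs2) and in 9.56% of all 32851 promoters of the same length, and the NF-kappaB type motif was in 1 of 12 and in 1.41% of all. A match is a run of letters and does not show that a factor was bound.

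The genes of the gate are given as a description, since they chose the barcodes. S100a8 summed to 11216 CPM in members of replicate 1 and 6203 CPM in those of replicate 2, against 17.6 and 71.2 CPM in C1q macrophages and 33.2 and 37.4 CPM in C1q-low monocytes. S100a9 summed to 10441 and 6556 CPM in members, against 9.21 and 88.1 CPM in macrophages. The calprotectin UMIs per member had a lowest value of 5, a median of 17 and a highest value of 221 in replicate 1, against 5, 14 and 36 in replicate 2. Between 5 and 9 calprotectin UMIs lay 3 members of replicate 1 and 16 of replicate 2, and 12 and 9 had 20 or more. Calprotectin took 5% or more of the UMIs of a barcode in 4 members of replicate 1 and in none of replicate 2. The genes of the second condition differed in which member they admitted. Retnlg, a resistin-like protein of mature neutrophils, was detected in 21 of 25 members of replicate 1 and in 10 of 46 of replicate 2, against 1 of 516 and 1 of 343 macrophages. Csf3r was detected in 4 and 21 members, against 11 and 26 macrophages. Slpi, an inhibitor of neutrophil elastase, was detected in 10 and 20 members, against 8 and 20 macrophages. Cxcr2 was found in 4 members of each library, and Mmp9, the gelatinase of the tertiary granule, in 2 and 5. Only 13 members of replicate 1 and 12 of replicate 2 held more than 1 of these 5 genes. In replicate 2, 11 members rested on Csf3r alone, 10 on Slpi alone, 6 on Retnlg alone, 5 on Mmp9 alone and 2 on Cxcr2 alone.

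**Figure D1:**
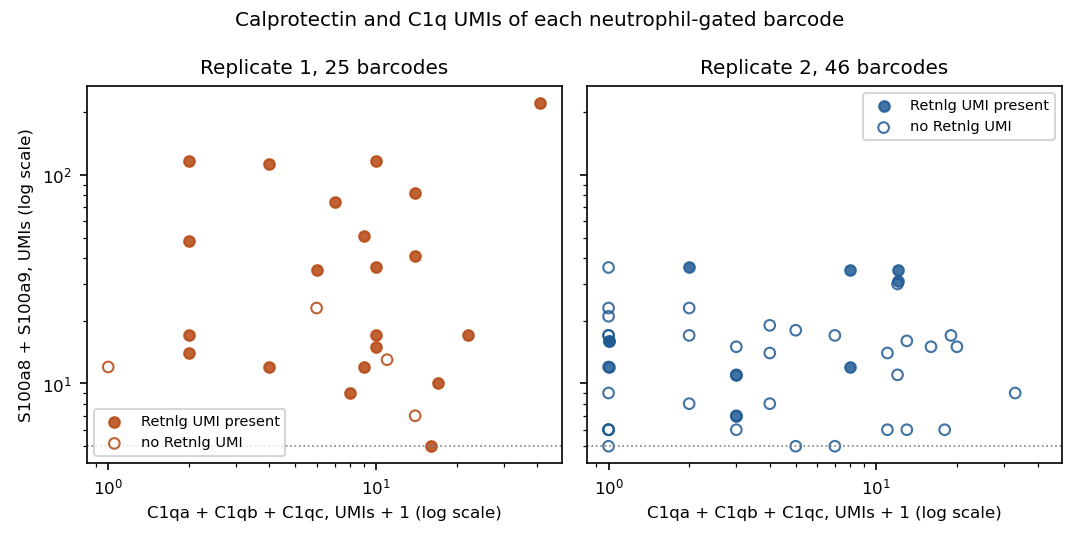
Calprotectin UMIs (S100a8 plus S100a9, log scale) against C1q UMIs plus 1 (C1qa, C1qb and C1qc, log scale) of each neutrophil-gated barcode, with 25 barcodes in replicate 1 on the left and 46 in replicate 2 on the right; filled points hold a Retnlg UMI and the dotted line marks the gate at 5. Filled points make up 21 of the 25 barcodes of replicate 1 and 10 of the 46 of replicate 2, and members of both libraries spread over the whole range of C1q UMIs, from 0 to 40 and from 0 to 32.

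The label was checked against neutrophil markers that the gate did not use. Ly6g, the defining surface antigen of mouse neutrophils, had 0 UMIs in the members of both libraries, which allows a share of up to 12% of 25 and 6.52% of 46 barcodes with a UMI. It was also at 0 in macrophages and monocytes, but it was detected in barcodes with a Cd3 transcript in replicate 2. Any of the 8 markers Ly6g, Hdc, Il1r2, Stfa2l1, Mrgpra2a, Trem1, G0s2 and Acod1 was found in 52% of members of replicate 1 and 60.9% of those of replicate 2, against 7.75% and 22.7% of macrophages and 4.92% and 31.1% of monocytes. With every barcode thinned to 500 UMIs the shares were 32% and 41.3% of members, against 2.52% and 9.04% of macrophages and 0.82% and 17.8% of monocytes. The members thus carried these markers more often than either phagocyte class in both libraries and at equal depth. Some of the markers were present in the phagocytes too. In barcodes with a Cd3 transcript the shares were 7.88% and 28.3%, and 2.49% and 10.4% when thinned. Markers of eosinophils, of mast cells and basophils, of red cells and of tumour epithelium were at 0 in the members. The epithelial list also had only 0 and 3 UMIs in the Ptprc-negative barcodes. These had 0 UMIs of Ptprc, Tyrobp, Fcer1g, Laptm5 and the Cd3 genes, and under 5 calprotectin UMIs. The 0 of the epithelial list in members therefore cannot show whether they held RNA of tumour cells. Markers of other phagocytes were present: the 7 macrophage markers summed to 11003 and 7411 CPM and the 5 monocyte markers to 271 and 2099 CPM in members, each detected in both libraries. The dendritic cell list summed to 1802 and 5293 CPM in members, against 2615 and 7124 CPM in macrophages and 3193 and 4726 CPM in monocytes. In members 2 of its 5 genes were detected, H2-Ab1 with 91 and 281 UMIs and Ccr7 with 2 and 4, while Flt3 was at 0, as were Siglech and Xcr1, which the gate excluded. The platelet list summed to 194 and 557 CPM in members with Ppbp at 0, the T and NK cell list to 77.5 and 186 CPM with the Cd3 genes at 0 by the gate, the fibroblast list to 77.5 and 111 CPM and the B cell list to 0 and 18.6 CPM. The part of these cell types in the results was not tested. The barcodes are therefore called neutrophil-gated, by their rule.

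C1q RNA, which macrophages make and neutrophils are not known to make, was present in most members. The C1q UMIs per member had a lowest value of 0, a median of 8 and a highest value of 40 in replicate 1, against 0, 2 and 32 in replicate 2. There were 5 members of replicate 1 and 18 of replicate 2 with at most 1 C1q UMI, and 18 and 17 members with 5 or more. C1q summed to 4378 and 4606 CPM in members, against 10446 and 8834 CPM in macrophages and 133 and 309 CPM in monocytes. The level in members was 41.9% and 52.1% of that in macrophages. Barcodes with 1 or more Cd3 UMIs and under 5 calprotectin UMIs summed to 6010 and 4608 CPM of C1q, so the members held no more of it than these barcodes did. The 7 macrophage markers summed to 16124 and 7921 CPM in these Cd3 barcodes, and the T and NK cell list to 1519 and 2056 CPM. Their C1q is therefore not the level of T cells alone. C1q was present at each level of calprotectin. In replicate 1 the 12 members with 20 or more calprotectin UMIs summed to 5523 CPM of C1q and the 10 with 10 to 19 to 2999.7 CPM, and in replicate 2 the same groups of 9 and 21 members summed to 4187 and 4686 CPM. The source of the C1q RNA in the members was not tested.

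Genes outside every gate were compared between the members and the C1q macrophages, class against class within the same libraries, with edgeR's quasi-likelihood test and Benjamini-Hochberg adjustment over all genes fitted. Of 7520 genes tested, 8 were higher in members at an adjusted p under 0.05 (0.106%) and 2 were lower (0.0266%), and 684 had an unadjusted p under 0.05. The 8 higher genes were Lcn2, Wfdc21, Stfa2l1, Cstdc4, Mxd1, Ptgs2, Cxcl2 and S100a6, and the 2 lower ones were Apoe and Hist1h2ap. The median log2 fold change over all genes tested was -0.33 with TMM scaling and -0.18 with RLE scaling, and each value below is to be read relative to it. Most genes tested were thus negative. Counts of positive or negative genes in a list are given below without the share of each sign over all genes, and carry no test. Genes that neutrophils express along with those of the gate can differ through the choice of barcodes alone. The 7 macrophage markers, which summed to 11003 and 7411 CPM in members, summed to 29640 and 14731 CPM in macrophages, and their part in these differences was not tested.

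Lcn2 encodes neutrophil gelatinase-associated lipocalin, which binds bacterial iron carriers, and lies at chr2:32384633-32388252. It had 12 UMIs in 6 members of replicate 1 and 4 UMIs in 4 members of replicate 2 (232 and 74.3 CPM), against 0 UMIs in both macrophage sums. Set against a floor of 3 UMIs per library for the macrophages, its observed CPM was 92.6-fold higher in replicate 1 and 13.2-fold higher in replicate 2 (edgeR adjusted p = 0.0106). These ratios leave out the counting error of the 12 and 4 member UMIs. Wfdc21, a small secreted protein with a whey acidic protein fold, had 20 UMIs in 11 members and 3 UMIs in 3 members (387 and 55.7 CPM), against 0 and 3 UMIs in macrophages. Its log2 fold change was 6.51 ± 1.11 (SE, edgeR adjusted p = 0.0129). Both genes stood higher in the members of replicate 1 than in those of replicate 2, and in both libraries above the macrophages.

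The stefins Stfa2l1 and Cstdc4 are cytosolic inhibitors of cysteine proteases, encoded side by side on chromosome 16 in a family of near-identical copies, so their separate counts are uncertain. Stfa2l1 had 8 UMIs in 3 members and 9 UMIs in 6 members (155 and 167 CPM), against 1 and 3 UMIs in macrophages, with a log2 difference of 5.62 ± 0.88 (SE, edgeR adjusted p = 0.00928). Cstdc4 had 8 UMIs in 5 members and 14 UMIs in 8 members (155 and 260.02 CPM), against 1 and 10 UMIs in macrophages, with 4.57 ± 0.81 (SE, edgeR adjusted p = 0.0191). Up to 5 of these UMIs came from 1 barcode. In members both genes differed by less than 2-fold between the libraries.

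Cxcl2, the chemokine that draws neutrophils through Cxcr2, lies at chr5:90903871-90905938. It summed to 368 CPM in members of replicate 1 and 1969 CPM in members of replicate 2, against 123 and 384 CPM in macrophages and 147 and 323 CPM in monocytes. The log2 fold change over macrophages was 1.83 ± 0.30 (SE, edgeR adjusted p = 0.00928). Cxcl2 was detected in 40% and 58.7% of members, against 14.7% and 28.9% of macrophages, and in barcodes thinned to 500 UMIs in 20% and 43.5%, against 6.01% and 13.1%. Within each library the members stood above both phagocyte classes, but members of replicate 1 stood below macrophages of replicate 2. A single barcode gave 8 of the 19 Cxcl2 UMIs in members of replicate 1, and 19 of the 106 in replicate 2. Cxcl2 was given as a marker of these barcodes with results of these data known. Among the members with at most 1 C1q UMI the log2 fold change was 1.24, with an adjusted p of 0.0755 in edgeR, beside a median of -1.11 over all genes in that setting.

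Ptgs2, which encodes the inducible cyclooxygenase COX-2 that makes prostaglandin precursors, lies at chr1:150100031-150108227. It had 3 UMIs in 2 members of replicate 1 and 36 UMIs in 20 members of replicate 2 (58.1 and 669 CPM), against 3.35 and 126 CPM in macrophages. Its log2 fold change was 2.42 ± 0.46 (SE, edgeR adjusted p = 0.0265). Mxd1, a transcriptional repressor of the MYC network that rises in granulocyte maturation, summed to 155 and 334 CPM in members, against 13.4 and 67.5 CPM in macrophages, with a fitted log2 difference of 2.48 ± 0.46 (SE, edgeR adjusted p = 0.0257). S100a6, a calcium-binding protein of many myeloid cells, summed to 5966 and 5312 CPM in members, against 2621 and 2180 CPM in macrophages and 6116 and 7178 CPM in monocytes. Its log2 fold change over macrophages was 0.98 ± 0.19 (SE, edgeR adjusted p = 0.0437). A single barcode of replicate 1 gave 99 of the 308 S100a6 UMIs there. Without the deepest barcode the value was 0.83 (edgeR adjusted p = 0.169), so the call was lost. At 20 or more calprotectin UMIs it was -0.13 beside a median of -1.78 over all genes, and the call was lost there too (edgeR adjusted p = 0.807).

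**Figure D2:**
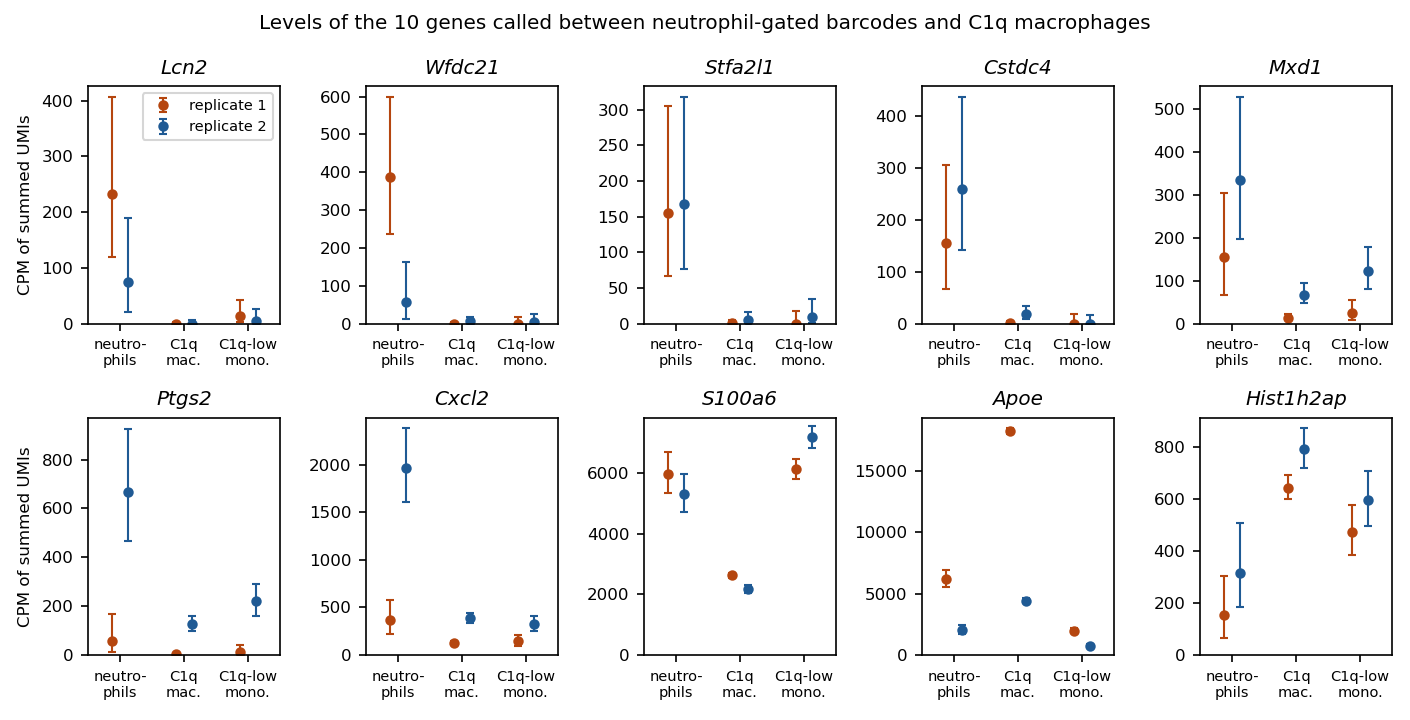
CPM of the summed UMIs (linear axes from 0) of the 10 genes called between neutrophil-gated barcodes and C1q macrophages, with neutrophil-gated barcodes, C1q macrophages (mac.) and C1q-low monocytes (mono.) from left to right; points are libraries and bars are exact 95% Poisson intervals. Cxcl2 and Ptgs2 stood higher in members of replicate 2, at 1969 and 669 CPM, and Lcn2 and Wfdc21 higher in members of replicate 1, at 232 and 387 CPM.

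The 2 lower genes were Apoe, the lipid carrier that tumour macrophages express strongly, and Hist1h2ap, a histone H2A gene. Apoe summed to 6218 CPM in members of replicate 1 and 2043 CPM in members of replicate 2, against 18187 and 4428 CPM in macrophages. The log2 fold change was -1.59 ± 0.21 (SE, edgeR adjusted p = 0.00104). Hist1h2ap summed to 155 and 316 CPM in members, against 643 and 793 CPM in macrophages, with a fitted log2 difference of -1.90 ± 0.31 (SE, edgeR adjusted p = 0.00928). It has near-identical copies, so its count is uncertain. Of 15 cell cycle genes, none was called and none had a positive log2 fold change, with a median of -1.28 beside -0.33 over all genes. Mki67, a protein of dividing cells, had 1 UMI in members of each library, against 81 and 28 UMIs in macrophages (67.8 and 52.5 CPM).

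Against the C1q-low monocytes, 4 genes outside the gates were higher in members (0.0532% of 7520) and 1 was lower (0.0133%), and 625 had an unadjusted p under 0.05. This comparison shares its member sums with the comparison above. Cxcl2 differed on the log2 scale by 1.77 ± 0.32 (SE, edgeR adjusted p = 0.0239), and Cstdc4 had 8 and 14 UMIs in members, against 0 in both monocyte sums (edgeR adjusted p = 0.0216). Apoe was higher in members, with 6218 and 2043 CPM against 1988 and 744 CPM in monocytes and a fitted log2 difference of 1.19 ± 0.21 (SE, edgeR adjusted p = 0.0216). Ms4a7, a membrane protein of macrophages, summed to 523 and 390.03 CPM in members, against 66.4 and 65.5 CPM in monocytes, with 2.42 ± 0.34 (SE, edgeR adjusted p = 0.00143). The monocyte gate allowed at most 1 C1q UMI, and the member gate set no C1q limit. Genes that macrophages express along with C1q can therefore be higher in members through the choice of barcodes alone. In the members with at most 1 C1q UMI the log2 fold change was -1.23 for Apoe and -0.59 for Ms4a7, beside a median of -1.11 over all genes in that setting and of -0.32 over all members. Relative to that median Apoe stood lower and Ms4a7 higher. AY036118, a predicted transcript with no role stated here, was lower in members at 852 and 371 CPM, against 2405 and 758 CPM in monocytes, with -1.66 ± 0.27 (SE, edgeR adjusted p = 0.0092).

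Granule genes were grouped by the granule that holds their proteins. Of the azurophil granule list, made at the promyelocyte stage in the marrow, Mpo, Elane, Prtn3 and Ctsg had 0 UMIs in members of both libraries, and Ctsc was the only gene of 5 that could be tested. The specific and gelatinase granule list had 4 tested genes outside the gates among 10, all 4 with a positive log2 fold change over macrophages and 1 of them called, Lcn2. Camp and Ngp, antimicrobial proteins of the specific granule, each had 5 UMIs in members of replicate 1 and 0 in those of replicate 2, and 0 in macrophages and monocytes of both. The 5 Camp UMIs came from 1 barcode and the 5 Ngp UMIs from 3. Ltf, lactoferrin, had 1 and 0 UMIs, and Mmp8, the neutrophil collagenase, 1 and 1. Hp, haptoglobin, had 8 and 3 UMIs. Ctsc, the protease that activates the azurophil serine proteases, summed to 407 and 1133 CPM in members, against 792 and 2009.7 CPM in macrophages.

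Genes of interleukin 1 signalling were present in members of both libraries. Il1b, the secreted cytokine interleukin 1 beta, summed to 349 and 1189 CPM in members, against 48.6 and 641 CPM in macrophages and 56.9 and 805 CPM in monocytes. The log2 fold change over macrophages was 1.37 ± 0.40 (SE, edgeR adjusted p = 0.358), so the difference did not pass the test. Il1r2, the decoy receptor for interleukin 1, had 4 and 13 UMIs in members (77.5 and 241 CPM), against 10.04 and 103 CPM in macrophages. Il1rn, the receptor antagonist, summed to 77.5 and 371 CPM in members and 36.8 and 214 CPM in macrophages. Of 10 tested genes of the interleukin 1 list, 0 were called and 7 had a positive log2 fold change, with a median of 0.51 beside -0.33 over all genes. All 3 genes named stood above the macrophages within each library, and all 3 were higher in replicate 2 in both classes.

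Chemokines other than Cxcl2 did not pass the test. Ccl3, a chemokine that attracts myeloid and T cells, had 3 UMIs in 3 members of replicate 1 and 40 UMIs in 13 members of replicate 2 (58.1 and 743 CPM), against 90.4 and 172 CPM in macrophages. In replicate 2 a single barcode gave 17 of the 40. Ccl4, of the same family, summed to 213 and 966 CPM in members, against 317 and 388 CPM in macrophages. Members stood below macrophages in replicate 1 and above them in replicate 2 for both genes. Of 13 tested chemokines, 1 was called higher and 4 had a positive log2 fold change over macrophages, with a median of -0.42 beside -0.33 over all genes. Hdc, histidine decarboxylase, had 6 and 3 UMIs in members (116 and 55.7 CPM), against 1.67 and 3.75 CPM in macrophages. G0s2, an inhibitor of fat breakdown, had 1 and 11 UMIs in members (19.4 and 204 CPM), against 1.67 and 13.1 CPM in macrophages. Neither passed the test, with adjusted p-values of 0.169 for Hdc and 0.209 for G0s2 in edgeR.

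**Figure D3:**
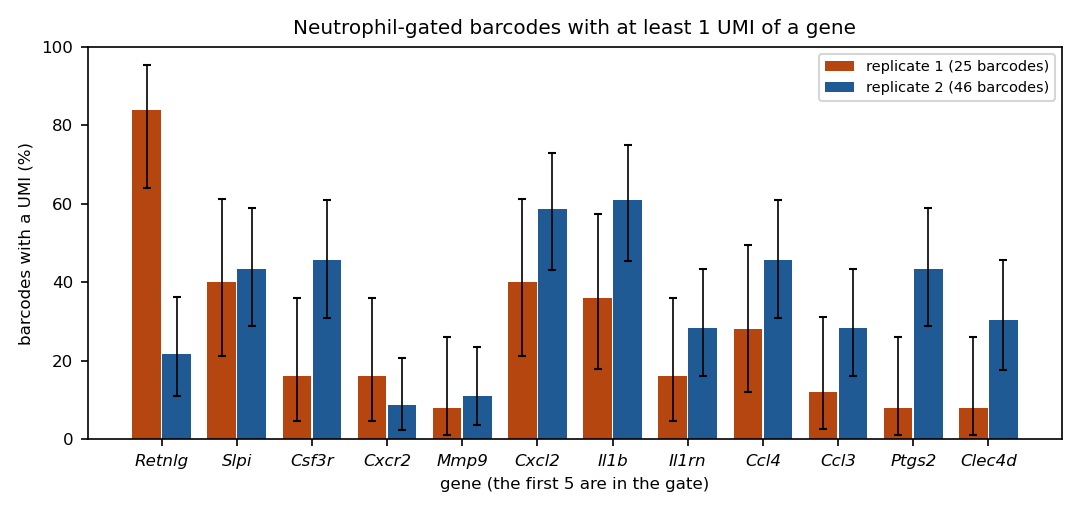
Share of neutrophil-gated barcodes with at least 1 UMI of each gene (percent, axis from 0), for 25 barcodes of replicate 1 and 46 of replicate 2; bars are shares and error bars are 95% Clopper-Pearson intervals, and the first 5 genes belong to the gate. Retnlg was found in 84% of members of replicate 1 and 21.7% of replicate 2, and Ptgs2, which is not in the gate, in 8% and 43.5%.

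The C1q level allows a simple subtraction, chosen after the data were seen. The macrophage profile was scaled to the C1q share of 41.9% and 52.1% and taken off the member sums. This takes all C1q of the members as coming from average macrophages, which was not tested. What a gene keeps follows from its ratio of members to macrophages, so the values are no separate support for the calls. Lcn2, with no UMI in macrophages, could only keep 100%. Of the other called genes, Wfdc21 kept 100% and 94.7% of its CPM, Stfa2l1 99.8% and 98.2% and Ptgs2 97.6% and 90.2%. Cxcl2 kept 86.0% and 89.8% and S100a6 81.6% and 78.6%. Cstdc4, Mxd1 and Hist1h2ap are not given here. Il1b kept 94.2% and 71.9%. Apoe kept 0% in both. Cd74, the invariant chain of MHC class II, kept 14.9% and 35.9%, and Csf1r, the receptor of the macrophage growth factor, kept 0% and 30.3%. In members of replicate 2 Csf1r was found in 19 of 46 barcodes, and among those with at most 1 C1q UMI it summed to 449 CPM.

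The members of the libraries differed from each other, a description with 1 library on each side and no test. Among 264 genes with 50 or more UMIs over all members, 15 were 2-fold or more higher in replicate 1 (5.68%) and 42 were 2-fold or more higher in replicate 2 (15.9%). Without the deepest barcode 9 and 32 genes passed the same fold. Among members with at most 1 C1q UMI 45 and 13 genes did, so the balance between the libraries turned round, and in replicate 1 the deepest barcode gave 12975 of the 19350 UMIs of that setting. The C1q macrophages of the same libraries moved in the same direction for 15 of 15 and 42 of 42 of these genes, and 2-fold or more for 4 and 18. A difference between the libraries as a whole and one between their neutrophils cannot be told apart here.

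Lyz2, the lysozyme of myeloid cells, had the largest ratio among these 264 genes. It had 190 UMIs in 20 of 25 members of replicate 1 and 0 UMIs in 46 members of replicate 2, which allows a share of up to 6.52% of barcodes. The same held for all kept barcodes, with 18038 UMIs in replicate 1 and 49 in replicate 2, so the difference was not particular to the members. Its near-identical neighbour Lyz1 had 0 and 16 UMIs in members and 34 and 804 UMIs in all kept barcodes. Reads of the pair may have been shared between them, which was not tested. The cause of the Lyz2 difference between the libraries was not tested either. The labels give no genotype for either library, and only the titles call the libraries replicates. Lyz2 was a gene of the monocyte gate, and in replicate 2 only 5 of 180 monocyte barcodes held a UMI of it, the others passing by Tyrobp.

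Retnlg, at chr16:48872621-48874496, summed to 1356 CPM in members of replicate 1 and 316 CPM in members of replicate 2, a log2 ratio of 2.10. Among members with at most 1 C1q UMI it was -0.57, with 5 and 6 UMIs. The 5 such barcodes of replicate 1 held 19350 UMIs, of which the deepest barcode gave 12975, along with 2 of the 5 Retnlg UMIs. Fabp5, a fatty-acid-binding protein, had 2 and 48 UMIs in members (38.7 and 891 CPM). Plac8, a gene of monocytes and granulocytes, had 4 and 66 UMIs (77.5 and 1226 CPM). Both were higher in replicate 2 in macrophages as well. The other genes higher in members of replicate 2 were Cxcl9, an interferon-induced chemokine (155 and 929 CPM), Ifitm1 and Ifitm2, antiviral membrane proteins (232 and 1337, 426 and 1560.1 CPM), Mcl1, the survival factor on which neutrophils depend (232 and 1059 CPM), Cxcl2 and Ccl4. The other genes higher in members of replicate 1 were Apoe, Bst2, an interferon-induced tether of viruses (814 and 241 CPM), Rpl41, a ribosomal protein (11410 and 3937 CPM), Snrpf, a splicing protein (891 and 316 CPM), Uqcr11, a respiratory chain subunit (755 and 297 CPM), and AY036118.

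**Figure D4:**
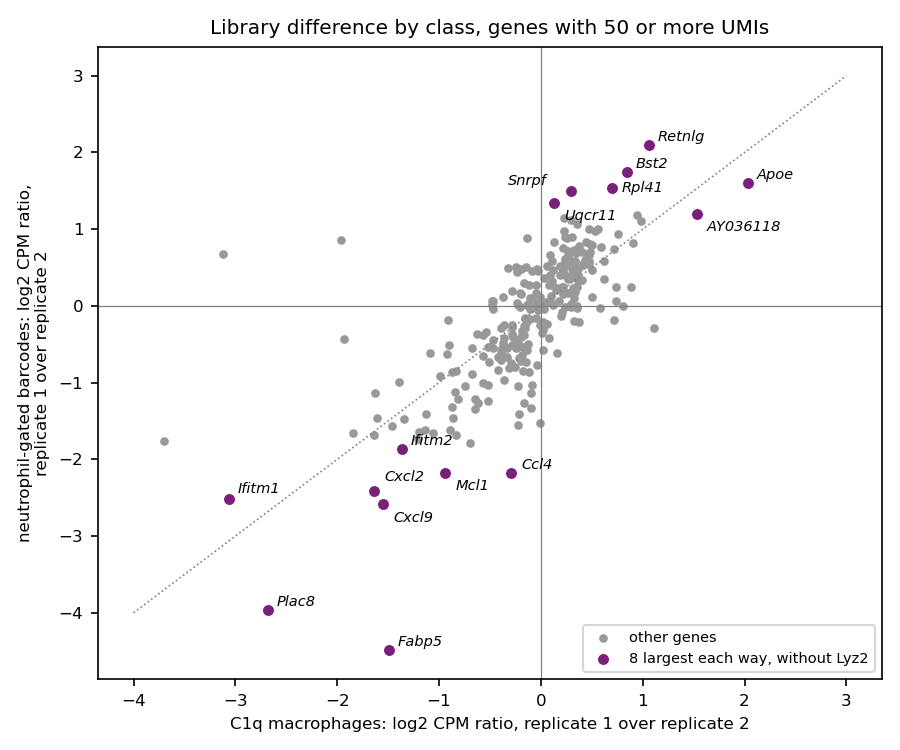
Log2 ratio of CPM, replicate 1 over replicate 2, in neutrophil-gated barcodes (vertical) against C1q macrophages (horizontal), for 263 genes with 50 or more UMIs in the members, without Lyz2; the dotted line marks equal ratios and purple points are the 8 genes with the largest ratio in each direction, Lyz2 left out. The correlation across genes was 0.72, which does not show that the ratios were equal in size. Of the 8 purple genes higher in replicate 2, Ifitm1 lies above the line and the others, Fabp5, Plac8, Cxcl9, Cxcl2, Mcl1, Ccl4 and Ifitm2, lie below it.

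Retnlg and Cxcl2 were also counted within the same members. Both genes were detected in 8 members of replicate 1 and 4 of replicate 2, Retnlg alone in 13 and 6, Cxcl2 alone in 2 and 23, and neither in 2 and 13. Ccl3 or Ccl4 was found in 7 and 25 members, of which 6 and 5 also held Retnlg. Among all members Retnlg, a gene of the gate, was in 21 of 25 and 10 of 46. The overlap with Ccl3 or Ccl4 was thus near the share of Retnlg in each library. Members of 1 library share their source, so these values describe the barcodes and carry no test.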

How the data were processed

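Immune cells sorted from MC38 tumours were profiled as 2 replicate libraries of 1 group. The authors deposited unnormalised UMI counts, whole numbers for each gene in each barcode, and listed no barcode under 500 UMIs. Cell Ranger 6.0.1, Seurat 4.0.1 and the build mm10 are named in the submitters' processing notes, without the step that Seurat served or the gene annotation. With the library as a block, p-values measure how far differences between classes varied from library to library, over all classes fitted. Nothing in the labels says how many animals each replicate came from, so this spread may be technical in part.

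The members, the 23 gene lists and the 12 marker lists were chosen with earlier results of these data known. Barcodes were gated as stated, a barcode taking the first gate it passed. Counts were added up within each library for 5 classes: neutrophil-gated, Cd3-positive, C1q macrophages, C1q-low monocytes and Ptprc-negative barcodes. The last had 0 UMIs of Ptprc, Tyrobp, Fcer1g, Laptm5 and the Cd3 genes, and under 5 calprotectin UMIs. The 10 sums were fitted together by the quasi-likelihood test of edgeR 4.0.16 under R 4.3.3 (filterByExpr, TMM, library as a block, Benjamini-Hochberg adjustment, threshold 0.05), so that all classes shared 1 estimate of the spread. The classes of a library come from the same tumour sample, and are paired by it. The log2 ratios of both libraries in members and macrophages had a correlation of 0.835 over 264 genes, and of 0.72 without Lyz2. Members also held RNA of macrophage markers, and its part in this correlation was not tested. The script was tested on simulated data with known changes. Against macrophages it called 6% of the 2-fold and 49% of the 4-fold changes, and against monocytes 5% and 36%. A gene that was not called may therefore still differ. Intervals of levels are exact Poisson and those of shares Clopper-Pearson, at 95%. A count of 0 was read as up to 3 counts. Doublets called by Scrublet (scanpy 1.11.5) were kept in the main values and left out in an alternative.

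Named genes were, against macrophages, up to 12 in each direction by log2 fold change, and against monocytes up to 6, among called genes in no gate with the same direction in both libraries and a mean of 50 CPM or more in the higher class, without mitochondrial, ribosomal and unnamed genes. Between the libraries they were the 8 with the largest ratio in each direction among genes with 50 or more UMIs. List members and gate genes were named too. Alternatives were DESeq2 1.42.0, RLE scaling, no low-count filter, no block, only the compared classes, members with at most 1 C1q UMI, 20 or more calprotectin UMIs, doublets left out, stricter cell filters and thinning to 500 UMIs. Promoter windows came from RefSeq on GRCm38.p6 and gene positions from the GENCODE annotation of that build. The starts of Cxcl2 and Lcn2 differ between these annotations, so the last bases of the Cxcl2 window and the whole Lcn2 window lie within the GENCODE genes. A planned split of the members by a set of genes is not reported here.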

Additional observations from a re-analysis of the deposited data

How the results depend on the processing

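Settings that leave out the deepest barcode of replicate 1, and those of the C1q level, were chosen after seeing the data. Genes higher and lower in members than in C1q macrophages (8 and 2) numbered 14 and 3 with DESeq2, 9 and 2 with RLE scaling, 15 and 70 with no low-count filter, 17 and 2 with only the compared classes in the fit, 12 and 128 in members with at most 1 C1q UMI, 5 and 214 at 20 or more calprotectin UMIs, 0 and 2 at 500 or more genes and under 5% mitochondrial UMIs, 4 and 13 in thinned barcodes, and 7 and 2 without the deepest barcode. Against C1q-low monocytes (4 and 1) the same settings gave 9 and 4, 5 and 1, 11 and 48, 19 and 5, 2 and 20, 3 and 217, 2 and 2, 4 and 16, and 6 and 21. At the stricter cell filter, where edgeR called 0 genes higher than macrophages, 594 genes had an unadjusted p under 0.05. The reduced gates hold fewer barcodes and UMIs. Over all genes the median log2 fold change over macrophages was -1.11 with at most 1 C1q UMI and -1.78 at 20 or more calprotectin UMIs, beside -0.33 as reported, so their lower calls are to be read against a shifted median, and 25 of the 214 and 17 of the 128 lower genes had 0 UMIs in members.

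The library pairs the classes by construction. With no replicate block, edgeR called 0 genes in either comparison, while 499 and 477 genes had an unadjusted p under 0.05, so every named call was lost without it.

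The scaling moved the median log2 fold change over macrophages to -0.18 with RLE, against -0.33 with TMM. The sign of S100a6 turned to -0.13 at 20 or more calprotectin UMIs, above the median of -1.78 in that setting. In members with at most 1 C1q UMI the signs against monocytes turned to -0.59 for Ms4a7 and -1.23 for Apoe, beside a median of -1.11, and Retnlg turned to -0.57 between the libraries. The cause of these changes was not tested. Wfdc21 had an adjusted p of 0.523 with DESeq2, and the adjusted p of Cxcl2 over macrophages ran from 2.57e-05 to 0.693 over the settings. The mean share of members was 0.41% at 20 or more calprotectin UMIs and 0.422% with at most 1 C1q UMI. Genes 2-fold higher in members of replicate 1 and of replicate 2 (15 and 42) numbered 13 and 12 at 20 or more calprotectin UMIs, 45 and 13 with at most 1 C1q UMI (where the deepest barcode gave 12975 of 19350 UMIs in replicate 1), and 9 and 32 without the deepest barcode. The mean C1q level of members (4492 ± 161 CPM, SD, n = 2 libraries) was 4855 CPM at 20 or more calprotectin UMIs, 4970.1 CPM under the stricter cell filter, 5214 CPM without the deepest barcode and 5052 CPM in thinned barcodes. The 51623 and 53842 member UMIs limit all of this: a gene under 19.4 CPM has less than 1 UMI in the members of replicate 1.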

Other observations

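Gene groups that the comparisons above left out showed few calls in members. Of 12 tested genes of the suppressive and metabolic list, Ptgs2 was the only one called over macrophages. Arg1, which depletes arginine, had 1 and 7 UMIs in members (19.4 and 130.01 CPM), against 161 and 116 CPM in macrophages, and Cd274, which encodes PD-L1, had 0 and 14 UMIs (0 and 260.02 CPM), against 23.4 and 171 CPM. Neither passed edgeR's test. None of 13 tested genes of the list for tumour neutrophils marked by SiglecF was called over macrophages, 8 had a positive log2 fold change, and Siglecf itself had 0 UMIs in members of both libraries. The respiratory chain list had 1 of 20 tested genes with a positive log2 fold change and 0 calls, with a median of -0.29 beside -0.33 over all genes, and the interferon list had 10 of 20 positive and 0 calls, with a median of 0.01. All 17 tested genes of the MHC class II and lysosome list had a negative log2 fold change over macrophages, with 0 calls and a median of -0.84 beside -0.33. Against monocytes 7 of 17 were positive, with a median of -0.12 beside -0.32 over all genes.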
